A study of Mus musculus with 6 samples.

Results

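*Neurog2*, *Neurod1*, *Eomes* and *Tbr1* encode transcription factors of the glutamatergic neuronal lineage, and their chromatin was examined in SVZ NSC cultures, that is, neural stem cells grown as monolayers from the subventricular zone of the postnatal mouse brain. Every peak that overlapped 1 of 4 windows of mm9, the mouse genome build of the peak lists, was taken: chromosome 3 from 127320000 to 127350000 for *Neurog2*, chromosome 2 from 79280000 to 79310000 for *Neurod1*, chromosome 9 from 118370000 to 118410000 for *Eomes* and chromosome 2 from 61625000 to 61665000 for *Tbr1*. These windows held 26 of the 43384 peaks in the study: 6 of 15187 for H3K27me3 at 30 h of differentiation, 10 of 9470 for H3K27me3 in proliferating cultures and 10 of 18727 for H3K4me3 in proliferating cultures. All cultures came from C57BL/6 mice and were at passages 5 to 7, and the differentiating cultures had been moved to medium without EGF and bFGF. The culture used for H3K4me3 was labelled ventral, and the others carried no such label. There was 1 library per mark and condition, so no difference between lists has a replicate check, no value has an error and no test was made.

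H3K27me3 is laid down by EZH2 within PRC2 and is associated with silenced genes, whereas H3K4me3 marks the promoters of genes that are active or poised. Promoters with both marks are called bivalent and are common at developmental regulators that a cell does not use. In the embryonic cortex, the proneural bHLH factor *Neurog2* starts glutamatergic neurogenesis, the T-box factor *Eomes* (also called *Tbr2*) marks intermediate progenitors, the bHLH factor *Neurod1* drives their differentiation, and the T-box factor *Tbr1* acts in postmitotic glutamatergic neurons. Most neurons born in the postnatal SVZ are instead GABAergic interneurons of the olfactory bulb.

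The RefSeq promoters of the 4 genes (GRCm38.p6, 250 bases before to 50 bases after the start) are given below, since both marks are usually read at promoters and the peaks themselves come without sequence. They lie at chr3:127632886-127633185 on the + strand for *Neurog2*, chr2:79456587-79456886 on the - strand for *Neurod1*, chr9:118477939-118478238 on the + strand for *Eomes* and chr2:61804203-61804502 on the + strand for *Tbr1*. These positions are of a later build than the peaks, and cannot be set against them. Capitals mark TATATAA, the letters of a TATA box, searched on both strands after the sequences had been looked at.
Neurog2: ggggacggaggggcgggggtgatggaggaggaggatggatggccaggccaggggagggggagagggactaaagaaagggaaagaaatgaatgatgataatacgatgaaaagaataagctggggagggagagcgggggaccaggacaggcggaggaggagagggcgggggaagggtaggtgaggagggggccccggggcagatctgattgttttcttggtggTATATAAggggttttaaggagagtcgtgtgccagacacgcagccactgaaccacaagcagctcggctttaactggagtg
Neurod1: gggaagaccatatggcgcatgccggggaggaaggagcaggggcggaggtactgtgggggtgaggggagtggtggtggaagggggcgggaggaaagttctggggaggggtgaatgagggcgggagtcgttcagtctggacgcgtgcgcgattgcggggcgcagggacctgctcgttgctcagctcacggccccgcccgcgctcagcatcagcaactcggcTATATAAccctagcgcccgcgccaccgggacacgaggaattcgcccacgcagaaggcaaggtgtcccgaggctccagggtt
Eomes: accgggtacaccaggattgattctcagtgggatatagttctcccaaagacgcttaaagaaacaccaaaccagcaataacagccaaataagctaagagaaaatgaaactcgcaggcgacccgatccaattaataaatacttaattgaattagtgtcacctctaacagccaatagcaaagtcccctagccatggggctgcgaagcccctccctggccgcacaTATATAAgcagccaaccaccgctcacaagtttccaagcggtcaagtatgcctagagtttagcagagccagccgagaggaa
Tbr1: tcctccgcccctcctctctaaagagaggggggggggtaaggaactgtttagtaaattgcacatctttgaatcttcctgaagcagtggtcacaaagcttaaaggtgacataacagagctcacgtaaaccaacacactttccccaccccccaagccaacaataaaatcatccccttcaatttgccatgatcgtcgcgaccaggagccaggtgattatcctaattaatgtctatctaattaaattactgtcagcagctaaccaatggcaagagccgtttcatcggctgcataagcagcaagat

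TATATAA was found in 3 of the 4 promoters, 29 bases before the start of *Neurog2*, 31 before that of *Neurod1* and 30 before that of *Eomes*, but not in *Tbr1*. On either strand these letters were in 3.24% of the 32851 promoters of that length, and on the gene's strand they began 25 to 35 bases before the start in 0.536%. The promoter of *Neurod1* had 26 CpG dinucleotides, more than 83.1% of all promoters. Those of *Neurog2* and *Eomes* had 10 each and that of *Tbr1* had 7, against a median of 7. The 4 promoters thus differed in CpG number, and only *Neurod1* stood well above the median in this stretch.

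All 4 windows carried both marks in proliferating SVZ NSCs. H3K4me3 was found in 2 peaks at *Neurog2*, 2 at *Neurod1*, 3 at *Eomes* and 3 at *Tbr1*, and all 10 overlapped an H3K27me3 peak of the proliferating list. Across the genome 11.0% of H3K4me3 peaks did so, and 10.2% overlapped H3K27me3 of both lists. In 30 kb tiles laid over the placed chromosomes other than Y, 2.87% held peaks of all 3 lists, and in 40 kb tiles 3.90% did. Most of all tiles laid held no proliferating H3K27me3: 7679 of the 87961 tiles of 30 kb and 7214 of the 65973 tiles of 40 kb held any. Among tiles with at least the proliferating H3K27me3 cover of *Neurog2*, 52.6% held H3K4me3. For the cover of *Neurod1*, *Eomes* and *Tbr1* the shares were 61.8, 64.7 and 66.7%, so both marks together were common at such cover. Peaks of 1 window are not independent of each other, and overlap of peaks does not show that both marks sat in the same cells. Only the H3K4me3 culture was labelled ventral, so the marks may also come from different cultures. Bivalency is used here for overlap of the lists only. The map of the peaks shows H3K4me3 as short islands inside long stretches of H3K27me3.

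**Figure D1:**
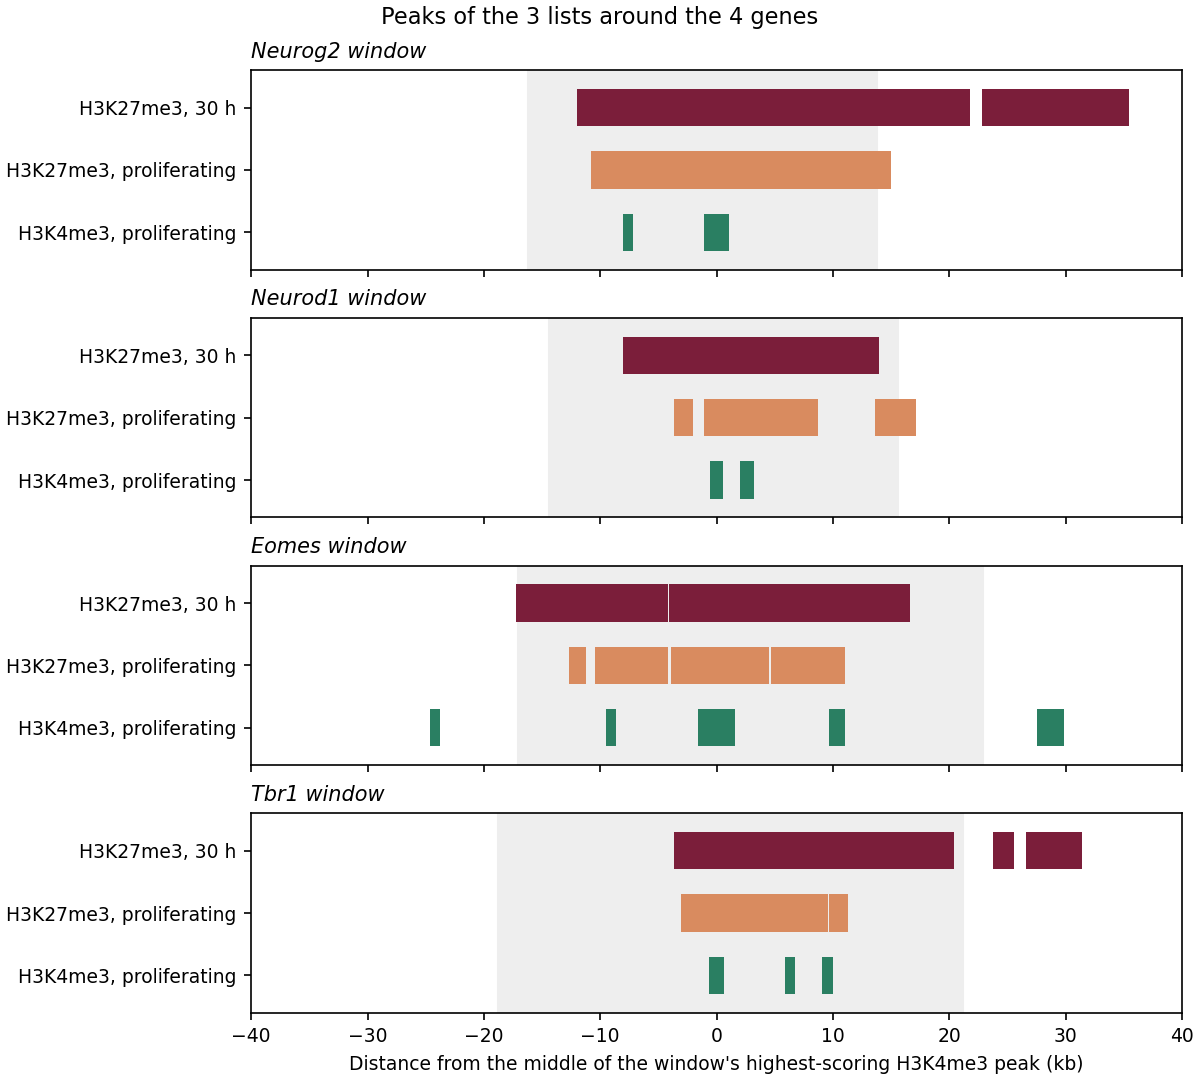
Peaks of the 3 lists (rows) in the 4 windows (grey) and 10 kb to either side, drawn to scale along the distance in kb from the middle of the highest-scoring H3K4me3 peak of each window (x axis). Every H3K4me3 peak inside a window overlaps H3K27me3 of both lists, while the 2 H3K4me3 peaks beside the *Eomes* window lie outside it. The gap of 18 bp at *Eomes* at 30 h is too small to see.

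At *Neurog2*, the stronger H3K4me3 peak ran from 127335122 to 127337254 on chromosome 3, was 2133 bp wide and had a score of 396. The score is the value that the authors' peak caller, MACS, gave the peak, and is used here only to rank peaks within a list. The weaker peak, from 127328105 to 127328973, was 869 bp wide with a score of 57.8, close to the lowest score in the list, 50.01. Both lay wholly inside a single proliferating H3K27me3 peak of 25.8 kb, from 127325425 to 127351216, 53 on the list of 9470 ordered by width. *Neurog2* was the only window whose H3K27me3 formed a single peak in each list.

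At *Neurod1*, the H3K4me3 peaks were 1130 bp wide (from 79293828 to 79294957 on chromosome 2, score 1105) and 1217 bp wide (from 79296380 to 79297596, score 228). Both sat within the middle of 3 proliferating H3K27me3 peaks, which spanned 9.84 kb from 79293317 to 79303153. The outer H3K27me3 peaks, 1.64 kb and 3.60 kb wide, had no H3K4me3. The island of both marks at this gene was therefore confined to 1 of its 3 H3K27me3 peaks.

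The *Eomes* window held the widest and highest-scoring H3K4me3 peak of the 10, from 118385482 to 118388698 on chromosome 9, with a width of 3217 bp and a score of 1226. The others, from 118377615 to 118378414 and from 118396796 to 118398103, were 800 and 1308 bp wide and had scores of 74.95 and 251. Each lay in a different proliferating H3K27me3 peak, of 8.41, 6.32 and 6.37 kb in the order named, and a further H3K27me3 peak of 1.45 kb had none. The last of them ended 0.0310 kb short of the end of the proliferating H3K27me3 stretch, but 5.66 kb inside that of 30 h.

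At *Tbr1*, 3 H3K4me3 peaks lay on chromosome 2 from 61643151 to 61644442, from 61649662 to 61650542 and from 61652846 to 61653827. They were 1292, 881 and 982 bp wide, with scores of 178, 133 and 123. *Tbr1* was the window with the lowest top score. The last peak bridged the gap of 65 bp between the 2 proliferating H3K27me3 peaks, of 12.6 and 1.67 kb, and had 93.4% of its length under them. It was the only one of the 10 that was not wholly inside proliferating H3K27me3.

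Whole enclosure was thus seen for 9 of 10 H3K4me3 peaks, where 6.75% of all H3K4me3 peaks were enclosed, and 61.7% of the 2051 that met proliferating H3K27me3 at all. Read from the other mark, 7 of the 10 proliferating H3K27me3 peaks carried H3K4me3, against 19.5% of the list, and 3 of the 10, at *Neurog2*, *Neurod1* and *Tbr1*, carried more than 1 H3K4me3 peak, against 1.97%. Width bears on this: among proliferating H3K27me3 peaks of at least 5 kb, 54.6% carried H3K4me3, and all 6 such peaks in the windows did. The 3 peaks with more than 1 H3K4me3 peak were 25.8, 9.84 and 12.6 kb wide. The share with more than 1 was not taken among wide peaks, so 1.97% is not a matched background. H3K4me3 took up 11.6% of the proliferating H3K27me3 length at *Neurog2*, 15.6% at *Neurod1*, 23.6% at *Eomes* and 21.6% at *Tbr1*.

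The H3K4me3 peaks were low in their list, and the H3K27me3 peaks high in theirs. None of the 10 H3K4me3 peaks scored above the median of the list (2622), and their median was 203. By rank they stood above 2.16% (the weaker *Neurog2* peak) to 37.5% (the strongest *Eomes* peak) of all H3K4me3 peaks. Their median width was 1174 bp, against 1970 bp in the list, and 2 were wider than that. For comparison, the 1898 other H3K4me3 peaks under H3K27me3 at both times had a median score of 599 and a median width of 1457 bp. The 15905 under neither list had a median score of 3100, a score at which 44.9% of the list is tied, and a median width of 2067 bp. When only the stronger 50% of each list was used, no H3K4me3 peak remained in any window, so the bivalency described here rests on peaks of the weaker part of the H3K4me3 list.

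**Figure D2:**
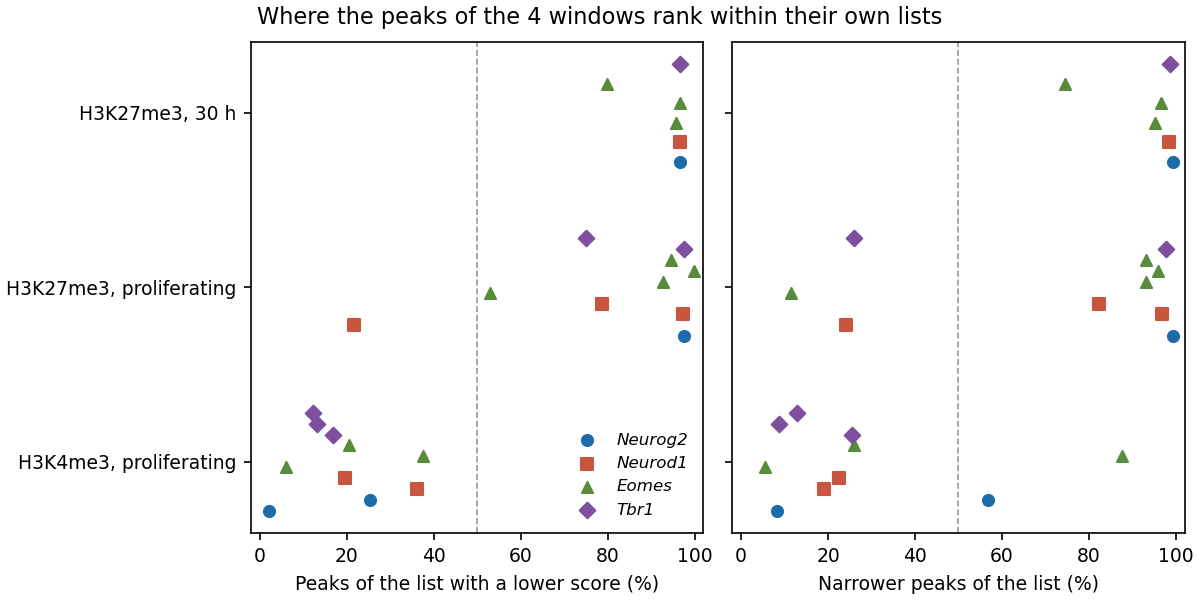
Rank of each peak of the 4 windows within its own list, as the percentage of the list with a lower score (left, x axis) and the percentage that is narrower (right, x axis), with colour and symbol for the gene and the dashed line at 50%. All 6 H3K27me3 peaks at 30 h are to the right of it in both panels, and all 10 H3K4me3 peaks are to the left of it by score.

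Among proliferating H3K27me3 peaks of the windows, 9 of 10 scored above the list's median of 88.25. The exception was the first *Neurod1* peak, with 60.7, above 21.7% of the list. The highest values were 3144 for the third *Eomes* peak, 3100 for the *Neurog2* peak, 3010 for the large *Tbr1* peak and 2720 for the middle *Neurod1* peak. The score of 3100 was shared by 2.27% of the list. Whether the few values above 3100 rank above the tied peaks is not known, so the *Eomes* and *Neurog2* peaks were not ordered. Each gene thus had a strong core peak, and 3 of the 4 genes had narrower, lower-scoring peaks beside it. Not all of these were weak for the list: those of 6.32 and 6.37 kb at *Eomes* scored above 92.7 and 94.5% of it.

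On 1 side of each window at least, the nearest H3K4me3 peak outside was free of H3K27me3. So were 15905 of all 18727 H3K4me3 peaks, so this is not a result about these windows. The nearest H3K4me3 peak to the right of the *Eomes* window, 4.59 kb from its edge and 2.36 kb wide, had the tied score of 3100 and no H3K27me3 in either list. A weak one to the left, 6.66 kb from the edge with a score of 104, had none either. To the left of the *Neurog2* and *Tbr1* windows the nearest H3K4me3 peaks, 62.2 and 73.6 kb away, also scored 3100 and were free of H3K27me3, as was the one 165 kb to the right of *Neurod1*. The one 220 kb to the right of *Tbr1*, with a score of 473, was free of H3K27me3 too. The H3K4me3 peak 10.5 kb to the left of the *Neurod1* window, with a score of 399.88, was itself over H3K27me3 of both lists, as was the one 58.2 kb to the right of *Neurog2*. By the order of genes in RefSeq (GRCm38.p6), the neighbouring protein-coding genes were *Zgrf1* and *Alpk1* for *Neurog2*, *Cerkl* and *Itprid2* for *Neurod1*, *LOC115486419* and *Golga4* for *Eomes*, and *Psmd14* and *Slc4a10* for *Tbr1*. With no mm9 gene positions at hand, no peak was assigned to a start site or to a neighbour.

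At 30 h of differentiation, H3K27me3 was present at all 4 genes and covered more of every window than in proliferating cultures. It covered 25.8 kb of the *Neurog2* window at 30 h and 24.6 kb in proliferating cultures, or 1.05 times as much. At *Neurod1* it covered 22.0 kb at 30 h and 13.5 kb in proliferating cultures (1.63 times). At *Eomes* it covered 33.6 kb at 30 h and 22.5 kb in proliferating cultures (1.49 times). At *Tbr1* it covered 24.1 kb at 30 h and 14.3 kb in proliferating cultures (1.68 times). *Neurog2*, the window most fully covered beforehand, differed least, and its peaks ran past the right edge of the window. Whole, they were 33.8 kb at 30 h and 25.8 kb in proliferating cultures, or 1.31 times.

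**Figure D3:**
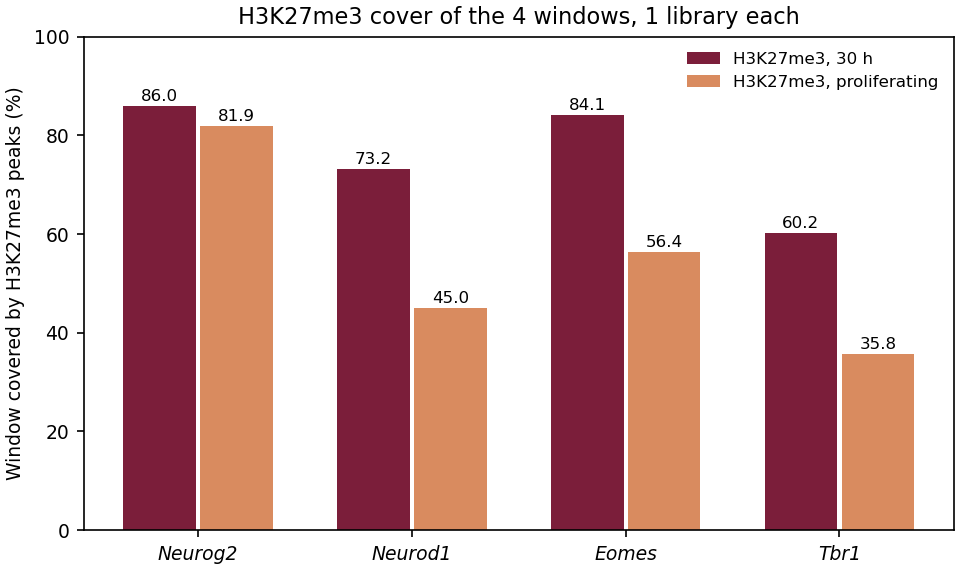
Percentage of each window covered by H3K27me3 peaks (y axis) at 30 h (left bar) and in proliferating cultures (right bar), 1 library each and so without error bars. The 30 h bar is the taller of each pair, from 86.0 against 81.9% at *Neurog2* to 60.2 against 35.8% at *Tbr1*.

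Over the 4 windows together, 75.3% of the 140 kb was covered at 30 h and 53.5% in proliferating cultures, a ratio of 1.41. The whole 30 h list covered 73.4 Mb and the proliferating list 29.2 Mb, a ratio of 2.52. The windows together were already more than 50% covered in proliferating cultures and cannot reach such a ratio, so 1.41 and 2.52 are not comparable. Taken alone, only *Tbr1*, with 35.8% covered in proliferating cultures, had room for it, and its ratio was 1.68. Depth is unknown, because the lists hold no read counts, and a longer or wider list can come from depth or threshold. When the 30 h list was reduced to its 2196 strongest peaks, which cover no more than the proliferating list, 5 of the 6 peaks remained in the windows and the ratio was 1.34. Every window still had more H3K27me3 at 30 h under that cut, with ratios from 1.05 at *Neurog2* to 1.68 at *Tbr1*. For *Neurog2*, *Neurod1* and *Tbr1* this was fixed in advance. Their single 30 h peaks had the tied score of 3100, so the cut kept them whole and their ratios did not change. Only *Eomes* could move, and its ratio was 1.27 after the cut. The cut removes weak peaks but does not shorten strong ones, so it is no correction for depth. Whether depth had a part in these differences was not tested.

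The peaks were fewer and wider at 30 h. There were 6 with a median width of 18809 bp at 30 h, and 10 with a median of 6342 bp in proliferating cultures. Peaks of the whole lists were wider at 30 h too, with medians of 3229 bp at 30 h and 2074 bp in proliferating cultures. The number depended on how peaks were split, and with peaks less than 3 kb apart merged it was 4 at 30 h and 5 in proliferating cultures. At *Neurod1*, a single 30 h peak of 22.0 kb, from 79286388 to 79308361, stood where proliferating cultures had 3, and filled their gaps of 971 and 4818 bp. At *Tbr1*, 1 peak of 24.1 kb, from 61640144 to 61664205, stood in place of 2. At *Eomes*, 3 peaks of 13.0, 15.6 and 5.09 kb at 30 h ran almost end to end, with gaps of 119 and 18 bp, where proliferating cultures had 4. The 30 h peak at *Neurog2* ran from 127324213 to 127357976.

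Except at *Neurod1*, where it was mostly in the gaps, the added length lay mostly at the outer ends, and its side differed between genes. At *Tbr1* the 30 h stretch reached 0.624 kb further to the left and 9.07 kb further to the right than in proliferating cultures. At *Neurog2* it reached 1.21 kb further left and 6.76 kb further right, and at *Eomes* 4.56 kb further left and 5.62 kb further right. At *Neurod1* it reached 4.32 kb further left, but fell short of the proliferating right end, where the last peak, from 79307972 to 79311575, had 10.8% of its length under the 30 h peak. Elsewhere in the windows only 40 bp of proliferating H3K27me3, at *Eomes*, had no 30 h peak over it.

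All 10 proliferating H3K27me3 peaks overlapped a 30 h peak, against 61.3% of the list, and 8 lay wholly inside one, against 46.5%. Of proliferating peaks of at least 5 kb, 99.1% overlapped a 30 h peak, so for the wide peaks here the overlap is close to the background. Of the 6 peaks at 30 h, 5 overlapped proliferating H3K27me3, against 30.7% of the list and 64.2% of its peaks of at least 5 kb. The exception was the right-hand *Eomes* peak, from 118398669 to 118403759, with a score of 499, which met neither proliferating H3K27me3 nor H3K4me3. The other 5 carried H3K4me3, against 16.0% of the 30 h list and 28.2% of its peaks of at least 5 kb. These 5 were 13.0 to 33.8 kb wide, each wider than at least 95.1% of the list. The class of at least 5 kb therefore does not match them in width.

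All 10 H3K4me3 peaks lay wholly inside 30 h H3K27me3, against 8.52% of all H3K4me3 peaks, and 14.3% of these overlapped it at all. No H3K4me3 peak of the windows lost its H3K27me3 by 30 h, and none gained it, since all were already under the mark. Across the genome, 1908 of the 2051 H3K4me3 peaks over proliferating H3K27me3 were also over that of 30 h. Keeping the mark was therefore usual and is not particular to these windows. H3K4me3 was measured in proliferating cultures only, so whether the windows carried it at 30 h is not known. The 30 h H3K27me3 peaks were among the widest and strongest of their list: 4 of 6 had the score of 3100, and the peaks at *Neurog2*, *Tbr1* and *Neurod1* were wider than 99.4, 98.6 and 98.3% of it.

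Set among all tiles of the same size, the windows were among the most heavily covered of the genome. At least as much H3K27me3 as at *Neurog2* was found in 0.316% of 30 kb tiles at 30 h and in 0.0864% in proliferating cultures. For *Neurod1* these shares were 0.574% at 30 h and 0.381% in proliferating cultures. For *Eomes*, among 40 kb tiles, they were 0.274% at 30 h and 0.202% in proliferating cultures, and for *Tbr1* 0.844% at 30 h and 0.500% in proliferating cultures. Tiles cut through domains at arbitrary points, whereas the windows were set around genes.

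More cover at 30 h was common where proliferating cover was high. It was found in 54.8% of all 30 kb tiles and 55.0% of all 40 kb tiles with proliferating H3K27me3. Of the 330 tiles of 40 kb with at least the proliferating cover of *Tbr1*, 93.0% had more at 30 h, with a median ratio of 1.35, against 1.68 at *Tbr1*. For *Eomes* 88.7% of 133 tiles had more, with a median ratio of 1.20 against 1.49. For *Neurod1* 88.1% of 335 tiles of 30 kb had more, with a median of 1.24 against 1.63, and for *Neurog2* 60.5% of 76 tiles, with a median of 1.02 against 1.05. Each window had by construction the lowest proliferating cover of the tiles it was set against, which leaves it more room for a high ratio, so its place above their median is not a result about these genes.

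**Figure D4:**
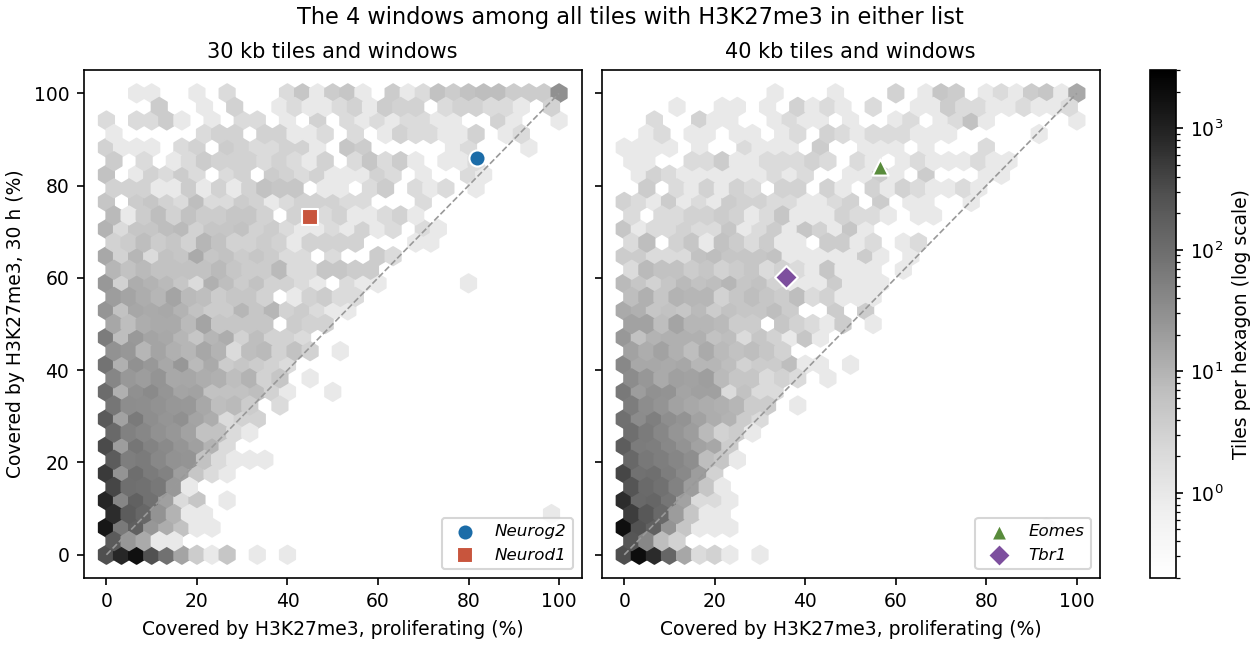
Percentage covered by H3K27me3 at 30 h (y axis) against proliferating cultures (x axis) for the 4 windows (coloured symbols) among all 30 kb (left) or 40 kb (right) tiles with H3K27me3 in either list (grey hexagons, number of tiles on a log scale), 1 library each. Points above the dashed line have more at 30 h, as all 4 windows do, at 86.0, 73.2, 84.1 and 60.2% for *Neurog2*, *Neurod1*, *Eomes* and *Tbr1*.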

How the data were processed

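Peak lists from 3 ChIP-seq libraries of SVZ NSC monolayer cultures were analysed. The submitters' processing notes name Bowtie2 and mm9. The authors called peaks with MACS, switching off its model and lambda options for H3K27me3. Its version, threshold, H3K4me3 settings and use of input are not given in the sources read, and input libraries were not analysed here. In each deposited list, from 1 library, a peak has a position and a score. Scores run upward from about 50, and many peaks (44.9% of the H3K4me3 list) are tied at 3100, with a few above. Read depth is unknown.

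Starts were counted from 1. Peaks overlapping a window by at least 1 bp were taken, and every one is described. Lists were intersected with Python 3.11.15, numpy 2.4.6 and pandas 2.3.3, with the same counts from bedtools 2.31.1, and the code was tested on simulated data. Figures were drawn with matplotlib 3.10.9. Tiles ran from the start of chromosomes 1 to 19 and X to their last peak. The genes, windows and settings were chosen with earlier results of these data known. The class of peaks of at least 5 kb was added after the values were seen. Other genes of the lineage were not analysed here for want of mm9 gene positions, and for the same reason no marker genes of the cultures were checked.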

Additional observations from a re-analysis of the deposited data

How the results depend on the processing

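Of 58 recomputed values, 55 stayed within 1.5 times the reported one, which was the limit used in the absence of replicates. Some of them could not move. Cutting the 30 h list, for example, cannot change the number of H3K4me3 peaks over proliferating H3K27me3. The count of 55 is therefore not a measure of robustness. With the stronger 50% of each list, the H3K4me3 peaks over proliferating H3K27me3 numbered 0, as did those over 30 h H3K27me3, because none of the 10 is in that part of the list. With peaks less than 3 kb apart merged, 5 proliferating H3K27me3 stretches remained in the windows, and 5 overlapped 30 h H3K27me3. The ratio of covered length at 30 h to that in proliferating cultures ranged over all settings from 1.29 (windows narrowed by 5 kb) to 1.56 (windows widened by 10 kb) for the 4 windows together. It was above 1 in every window under each setting, with the lowest value at *Neurog2* (1.02) and the highest at *Tbr1* (2.13). In the widened windows 10 of 12 H3K4me3 peaks overlapped H3K27me3. Unknown depth and single libraries limit every comparison. No paired analysis was possible because each group holds 1 library.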

Other observations

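The widened view added 3 peaks of 30 h H3K27me3, all on the right of a window and none over H3K4me3. To the right of *Neurog2*, a 12.6 kb peak with a score of 1889 began at 127359040 on chromosome 3, and 4906 bp of it overlapped proliferating H3K27me3. To the right of *Tbr1*, peaks of 1.80 kb (score 70.3) and 4.77 kb (score 161.5) met no proliferating H3K27me3.

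At *Eomes*, both lists had a short gap at nearly the same place: from 118382888 to 118383006 at 30 h (119 bp) and from 118382928 to 118383180 in proliferating cultures (253 bp). Gaps under 300 bp made up 7.17% of all gaps between neighbouring peaks at 30 h and 4.13% in proliferating cultures. These gaps were noticed after the values were seen.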
